A study of Mus musculus with 8 samples.

Results

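The genes described here are the 4 mouse Fc gamma receptors that are named Fcgr on the array, 3 of them activating (Fcgr1, Fcgr3 and Fcgr4) and 1 inhibitory (Fcgr2b), with the signalling chains Fcer1g and Tyrobp and the IgG transporter Fcgrt. Their spots were found by gene name among those that are not controls. Each of the 7 genes had 1 probe, and all 7 were among the 19778 genes tested. The samples were ovarian tumours of about 500 mm3 from 8 female C57BL/6JTgMISIIR-TAg mice, which carry a transgene that expresses SV40 T antigen from the promoter of the MISIIR gene (Amhr2). The 4 controls received the vehicle, 0.5% hypermellose with 0.1% Tween 80. The other 4 received AZD1480, an inhibitor of the kinases JAK1 and JAK2, at 30 mg/kg in that vehicle, and every tumour was collected 6 h later. The controls carry the transgene too, and no age of the animals was used here. The comparison asks how transcripts of whole tumours differ between the groups, and it measures no IgG binding and no protein.

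Fc gamma receptors let macrophages, monocytes, neutrophils and other leukocytes bind antibody-coated cells and immune complexes. The activating receptors signal through the ITAM motif of the gamma chain encoded by Fcer1g, whereas Fcgr2b carries an ITIM motif of its own and restrains them, so the balance between the activating and inhibitory receptors sets how a myeloid cell answers an antibody. JAK1 and JAK2 transmit the signals of interferons and of many cytokines, and interferon gamma is a textbook inducer of Fcgr1.

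Each array gave 1 value per gene, the log2 of the deposited processed intensity minus the log2 of the array's 75th percentile, so that a gene at 0 is as bright as that percentile. The 8 arrays lay on 2 slides scanned apart, each with 2 vehicle arrays (replicates 1 and 2 on slide 1, 3 and 4 on slide 2) and the 2 AZD1480 arrays of the same numbers. The 75th percentile was an intensity of 4706 to 5795 on slide 1 and 1587 to 2783 on slide 2. AZD1480 replicate 1 stood apart from the others, with a mean correlation across genes of 0.884 with the other arrays against 0.948 to 0.961 for the rest, and the differences between the groups are therefore given without it too wherever it moved them by over 1.5 times. The granulosa and transgene promoter genes Amhr2 and Foxl2 and the epithelial markers Pax8 and Krt8 were well above background on all 8 arrays. Of the same lists, Muc1 and Cdh1 were so on only 3 of the 4 AZD1480 arrays, and Fshr and Cyp19a1 were not among the genes tested. Amhr2 ran from -0.75 to 6.83 and was highest in vehicle replicate 1 (5.39) and AZD1480 replicate 1.

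Of the 7 genes, 4 lie on chromosome 1 (Fcgr2b, Fcgr4, Fcgr3 and Fcer1g), 2 on chromosome 7 (Tyrobp and Fcgrt) and 1 on chromosome 3 (Fcgr1), by the RefSeq annotation of GRCm38.p6. Promoter windows of 300 bases, 250 before to 50 after the annotated start, were available from RefSeq for 6 of the 7, and 3 motifs were searched in them on both strands. These were the GAS motif TTCNNNGAA, to which STAT dimers bind, the core of the interferon-stimulated response element (GAAA, any 2 bases and GAAA again), to which interferon regulatory factors bind, and GAGGAA, the core bound by PU.1, a master regulator of myeloid genes. The 250 bases before the start are shown for the 4 receptors, since the receptors differ in which of the motifs they hold. Capitals mark a match as it reads on the gene's strand.
Fcgr1 (GRCm38.p6 chr3:96293970-96294219, minus strand): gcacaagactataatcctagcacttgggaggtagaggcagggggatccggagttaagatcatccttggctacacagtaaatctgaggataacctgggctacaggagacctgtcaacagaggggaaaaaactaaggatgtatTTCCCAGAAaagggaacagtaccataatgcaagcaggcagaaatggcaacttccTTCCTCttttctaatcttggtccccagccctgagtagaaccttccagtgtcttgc
Fcgr3 (GRCm38.p6 chr1:171059404-171059653, minus strand, the downstream one of its 2 annotated starts): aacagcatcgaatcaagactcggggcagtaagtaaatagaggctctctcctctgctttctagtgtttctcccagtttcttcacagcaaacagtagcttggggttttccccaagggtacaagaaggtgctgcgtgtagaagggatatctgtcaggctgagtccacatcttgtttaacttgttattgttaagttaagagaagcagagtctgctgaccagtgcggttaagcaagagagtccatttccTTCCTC
Fcgr4 (GRCm38.p6 chr1:171018676-171018925, plus strand): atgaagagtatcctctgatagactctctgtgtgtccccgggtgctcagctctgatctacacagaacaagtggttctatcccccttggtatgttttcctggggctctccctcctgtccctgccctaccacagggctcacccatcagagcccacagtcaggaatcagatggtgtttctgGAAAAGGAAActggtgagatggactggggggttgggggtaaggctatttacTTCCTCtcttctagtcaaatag
Fcgr2b (GRCm38.p6 chr1:170976072-170976321, minus strand): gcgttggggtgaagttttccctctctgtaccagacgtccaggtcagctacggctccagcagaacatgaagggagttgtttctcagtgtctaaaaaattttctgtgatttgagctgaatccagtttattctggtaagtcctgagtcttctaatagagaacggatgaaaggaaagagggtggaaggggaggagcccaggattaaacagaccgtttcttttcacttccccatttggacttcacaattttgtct
The Fcgr1 window held a GAS match, TTCCCAGAA, whose first base is at -109 from the start, and a PU.1 core on the opposite strand, read here as TTCCTC, at -55. In Fcgr4 the response element core GAAAAGGAAA stood at -73 and a PU.1 core at -22. Fcgr3 held a PU.1 core at -6, and no match to the other motifs. None of the 3 motifs was found in these windows of Fcgr2b, Fcer1g or Fcgrt. Of all 32851 RefSeq mouse windows of this length, 8.30% hold the GAS motif, 3.44% the response element core and 28.3% the PU.1 core, so a match is a description of the letters and not a bound site.

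The probes are 60 bases long, and mm9 is the build of the positions that the array files give for them. The probe sequences of Fcgr3 and Tyrobp are shown, the first because the extracellular parts of Fcgr3 and Fcgr2b are nearly identical in mice, the second because its bases lie apart on the genome.
Fcgr3 probe (mm9 chr1:172984129-172984188, minus strand): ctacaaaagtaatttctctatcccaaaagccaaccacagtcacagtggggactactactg
Tyrobp probe (mm9 chr7:31200651-31202378, plus strand): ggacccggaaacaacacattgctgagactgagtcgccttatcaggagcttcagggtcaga
The Tyrobp probe spans 1728 bases of the genome and so joins exons of the spliced transcript. The other probes lie at chr3:96086839-96086898 (Fcgr1), chr1:172959738-172959797 (Fcgr4), chr1:172890988-172891047 (Fcgr2b), chr1:173159794-173159853 (Fcer1g) and chr7:52350556-52350615 (Fcgrt), on the same build. Whether the probes of Fcgr3 and Fcgr2b bind each other's transcript was not tested.

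All 4 Fc gamma receptors and both chains had lower means in the AZD1480 tumours, and the transporter Fcgrt had a slightly higher one. The differences were largest for Fcgr1, the high-affinity IgG receptor, at 2.63-fold lower, and for Fcgr2b at 2.06-fold and Fcgr3 at 1.89-fold lower. The groups did not overlap for 2 of the 7 genes, Fcgr1 and Fcgr3, where 1.41% of all genes tested were lower without overlap and 1.21% higher. By limma with Benjamini-Hochberg adjustment over all genes 0 of the 7 passed an adjusted p of 0.05, as did 0% of all genes (smallest adjusted p = 0.647), so no member is called changed. At an unadjusted p under 0.05 stood 2 of the 7, again Fcgr1 and Fcgr3, against 1.74% of all genes on the lower side and 1.72% on the higher. Fewer cells that carry a receptor and less of its RNA per cell cannot be told apart in these whole tumours.

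**Figure D1:**
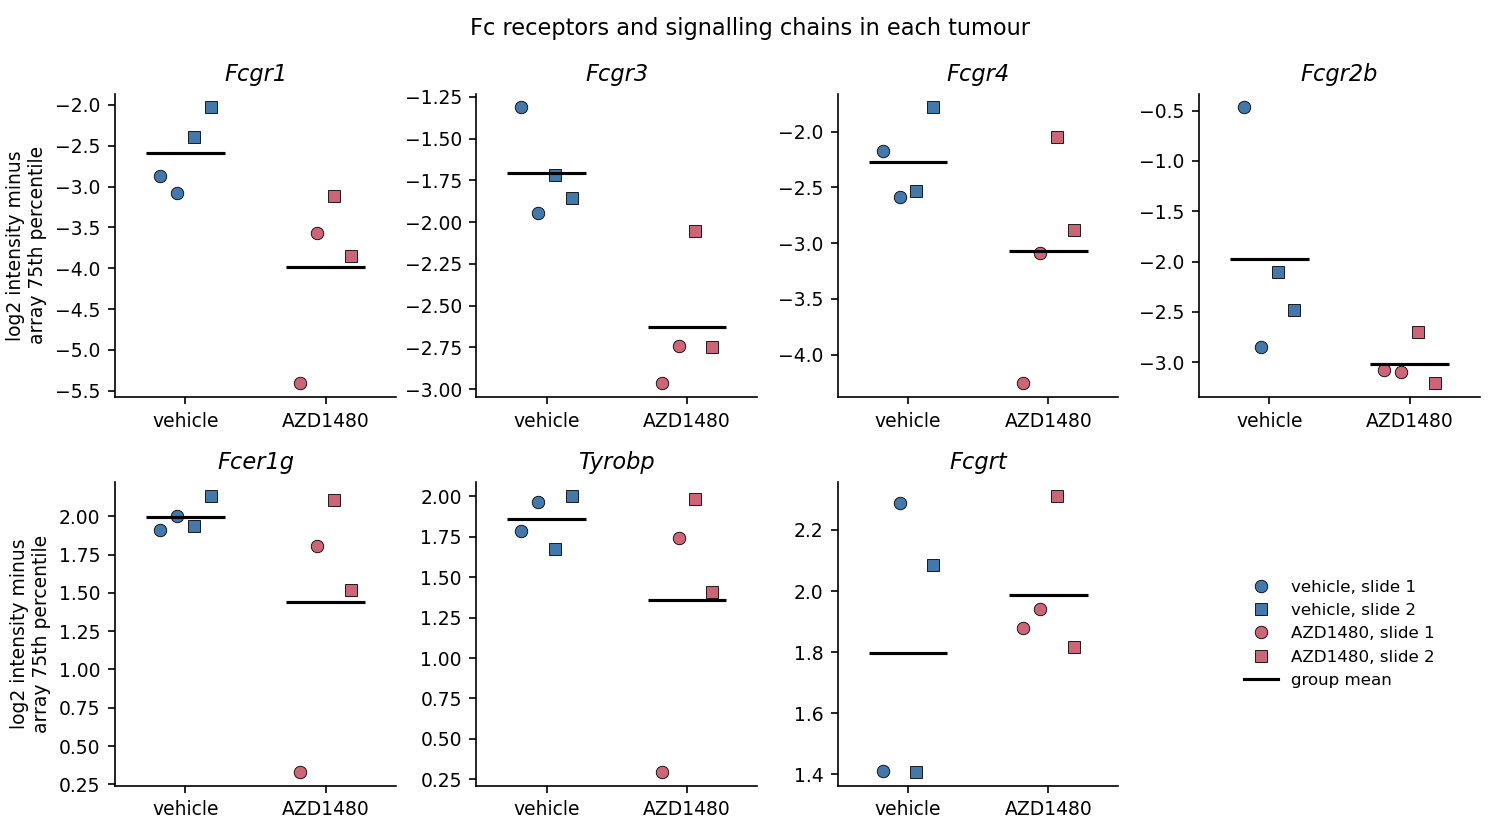
Value of each gene in each tumour, as log2 intensity minus the array's 75th percentile on the y axis, with its own range in every panel. Points are single arrays (circles slide 1, squares slide 2) in replicate order from left to right, and bars are group means of 4. The groups are apart for Fcgr1 and Fcgr3, 1 vehicle tumour is far above the rest for Fcgr2b (-0.47), and AZD1480 replicate 1 is lowest for Fcer1g (0.33) and Tyrobp (0.30).

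Fcgr1 encodes the receptor that binds single IgG molecules, and its transcript was at -2.87, -3.08, -2.40 and -2.03 in vehicle replicates 1 to 4. In AZD1480 replicates 1 to 4 it was at -5.41, -3.57, -3.12 and -3.85. Every AZD1480 tumour lay below every vehicle tumour, with a narrow gap of AZD1480 replicate 3 to vehicle replicate 2 and with AZD1480 replicate 1 far below the rest. The means were -2.59 (SD 0.47, n = 4) and -3.99 (SD 0.99, n = 4), which gives a log2 difference of -1.39 with a moderated SE of 0.50 from limma (95% interval -2.54 to -0.24, limma adjusted p = 0.974). Without AZD1480 replicate 1 the difference was -0.92, and it was -1.51 within slide 1 and -1.27 within slide 2. The probe was dim but above background throughout, with a processed intensity of 110.8 on AZD1480 replicate 1 and 109.7 on AZD1480 replicate 4 as the lowest.

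Fcgr3, the low-affinity receptor for immune complexes and the Fc gamma receptor of mouse natural killer cells, was at -1.31, -1.94, -1.72 and -1.86 in the vehicle tumours. Its AZD1480 values were -2.97, -2.74, -2.05 and -2.75. The groups were again apart, vehicle replicate 1 being the highest and AZD1480 replicate 3 lying just under the lowest vehicle tumour. The means were -1.71 (SD 0.28) and -2.63 (SD 0.40), and the log2 difference was -0.92 ± 0.24 (95% interval -1.48 to -0.35, limma adjusted p = 0.974). It was -0.81 without AZD1480 replicate 1, so Fcgr3 depended less on that tumour than Fcgr1 did. The difference was larger within slide 1 (-1.23) than within slide 2 (-0.61).

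Fcgr4, an activating receptor of monocytes, macrophages and neutrophils that binds IgG2 subclasses, was at -2.18, -2.58, -2.53 and -1.78 in the vehicle tumours and at -4.26, -3.09, -2.05 and -2.88 in the AZD1480 tumours. AZD1480 replicate 3 lay among the vehicle values, while the other AZD1480 tumours were below them. The log2 difference of -0.80 ± 0.45 was within the spread (SD 0.37 and 0.91, 95% interval -1.84 to 0.23, limma adjusted p = 0.974). It came to -0.41 without AZD1480 replicate 1 and to -1.30 and -0.31 within slides 1 and 2.

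The inhibitory receptor Fcgr2b was at -0.47, -2.85, -2.10 and -2.48 in the vehicle tumours and at -3.08, -3.09, -2.70 and -3.21 in the AZD1480 tumours. The vehicle tumours were far more spread (SD 1.05) than the AZD1480 tumours (SD 0.22), and vehicle replicate 1 alone was well above all others. The groups overlapped through vehicle replicate 2, which lay below AZD1480 replicate 3. This probe is printed 10 times on the array, and the spots of an array agreed to an SD of 0.040 to 0.090 on the log2 scale, so the high value of vehicle replicate 1 is not a single spot. The log2 difference was -1.04 ± 0.48 (95% interval -2.17 to 0.078, limma adjusted p = 0.974), and without vehicle replicate 1 it was -0.54. Leaving out AZD1480 replicate 1 barely moved it (-1.03), and within slides 1 and 2 it was -1.43 and -0.66.

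Fcer1g encodes the gamma chain through which the activating receptors are assembled and signal. It was at 1.91, 2.00, 1.94 and 2.13 in the vehicle tumours and at 0.33, 1.81, 2.11 and 1.52 in the AZD1480 tumours. The vehicle tumours were closely alike (SD 0.10, the smallest of the 7 genes), AZD1480 replicate 3 was as high as they were, and AZD1480 replicate 1 was lowest by far. The log2 difference of -0.55 ± 0.36 (95% interval -1.40 to 0.29, limma adjusted p = 0.974) came to -0.18 without AZD1480 replicate 1.

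Tyrobp, also called DAP12, is the ITAM chain of Trem and other myeloid receptors rather than of Fc gamma receptors. Its values were 1.79, 1.97, 1.68 and 2.00 in the vehicle tumours and 0.30, 1.74, 1.99 and 1.41 in the AZD1480 tumours. It followed Fcer1g array by array, with AZD1480 replicate 1 lowest and AZD1480 replicate 3 at the vehicle level. The log2 difference was -0.50 ± 0.35 (limma adjusted p = 0.974), and -0.15 without AZD1480 replicate 1. Within slides 1 and 2 the differences were -0.89 and -0.22 for Fcer1g and -0.86 and -0.14 for Tyrobp.

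Fcgrt encodes the heavy chain of the neonatal Fc receptor, which salvages IgG and albumin from breakdown and is expressed by endothelial, epithelial and myeloid cells. It was at 1.41, 2.29, 1.41 and 2.09 in the vehicle tumours and at 1.88, 1.94, 2.31 and 1.82 in the AZD1480 tumours. The vehicle tumours fell into a low and a high pair, one of each on both slides, and all AZD1480 tumours lay between the lower pair and just above the higher. The log2 difference was 0.19 ± 0.25 (95% interval -0.40 to 0.77, limma adjusted p = 0.976), and it ran from 0.058 to 0.35 when single arrays were left out. Its light chain B2m, which is shared with class I molecules, had a log2 difference of -0.96 ± 0.33 (limma adjusted p = 0.974), with the groups overlapping, and -0.70 without AZD1480 replicate 1.

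**Figure D2:**
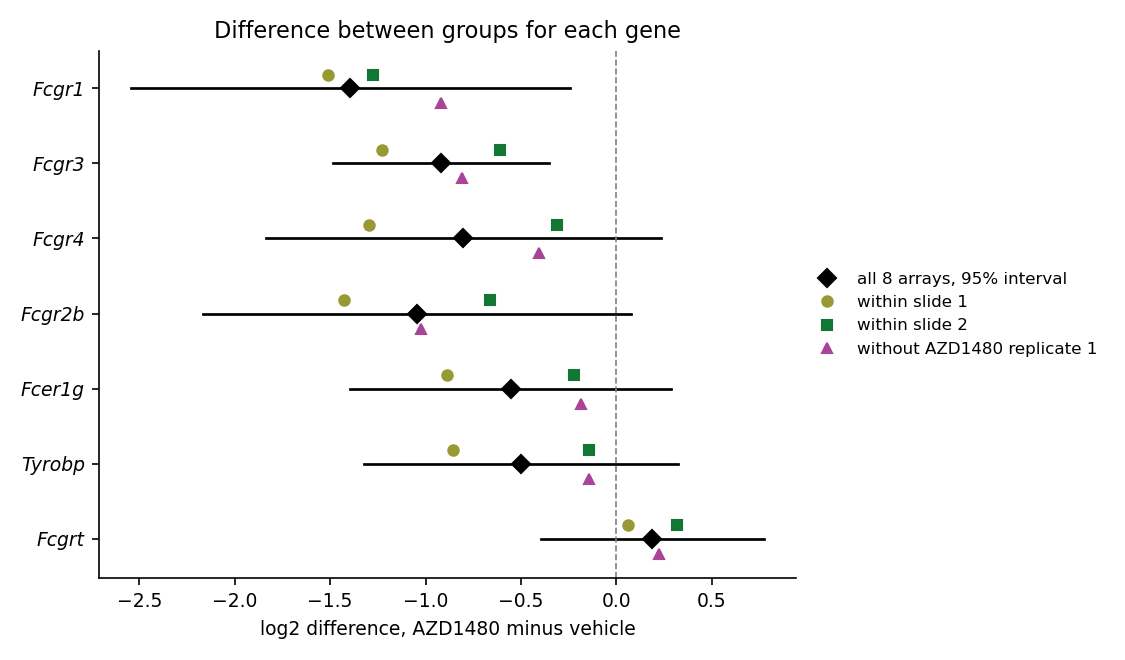
Log2 difference between the groups, AZD1480 minus vehicle, on the x axis for each gene. Diamonds with lines are the estimate over 8 arrays with limma's 95% interval, circles and squares the differences within slide 1 and slide 2, and triangles the difference without AZD1480 replicate 1. The intervals of Fcgr1 (-2.54 to -0.24) and Fcgr3 (-1.48 to -0.35) lie below 0 before adjustment, and the triangles of Fcer1g (-0.18) and Tyrobp (-0.15) lie near 0.

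Activating receptors were then set against the inhibitory receptor within each array, a difference that no scaling of the array can move. It compares how the probes' signals changed and not the levels of the receptors. Fcgr1 minus Fcgr2b was -2.40, -0.23, -0.30 and 0.45 in vehicle replicates 1 to 4 and -2.33, -0.48, -0.43 and -0.65 in AZD1480 replicates 1 to 4. Both groups held 1 tumour far below the others, replicate 1 in each. In vehicle replicate 1 Fcgr2b was high, and in AZD1480 replicate 1 Fcgr1 was low. The groups differed by -0.35 (two-sided exact permutation p = 0.486 over the 70 ways of drawing 4 of 8 arrays).

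Fcgr3 minus Fcgr2b was -0.85, 0.91, 0.38 and 0.62 in the vehicle tumours and 0.11, 0.35, 0.64 and 0.46 in the AZD1480 tumours, which all lay within the vehicle range. The difference of 0.13 had a two-sided exact permutation p of 0.886. Fcgr4 minus Fcgr2b was -1.71, 0.27, -0.43 and 0.70 in the vehicle tumours and -1.18, 0.0007, 0.65 and 0.32 in the AZD1480 tumours, a difference of 0.24 (two-sided exact permutation p = 0.686). Adjusted over these 3 comparisons every p was 0.886, and the smallest p that 4 against 4 arrays allow is 0.0286. The mean of the 3 activating receptors minus Fcgr2b differed by 0.0060 between the groups (SD 1.00 in vehicle and 0.63 in AZD1480), by 0.080 within slide 1 and by -0.068 within slide 2. Within slides 1 and 2 the single differences were -0.088 and -0.61 for Fcgr1, 0.20 and 0.052 for Fcgr3 and 0.13 and 0.35 for Fcgr4.

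The balance rested on single tumours. Without vehicle replicate 1 the differences from Fcgr2b were -0.94 for Fcgr1, -0.25 for Fcgr3 and -0.23 for Fcgr4, and that of the mean of the 3 was -0.47. Without AZD1480 replicate 1 they were 0.10, 0.22 and 0.62, and that of the mean was 0.31. A shift in the balance smaller than this spread was not detectable with 4 tumours per group.

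**Figure D3:**
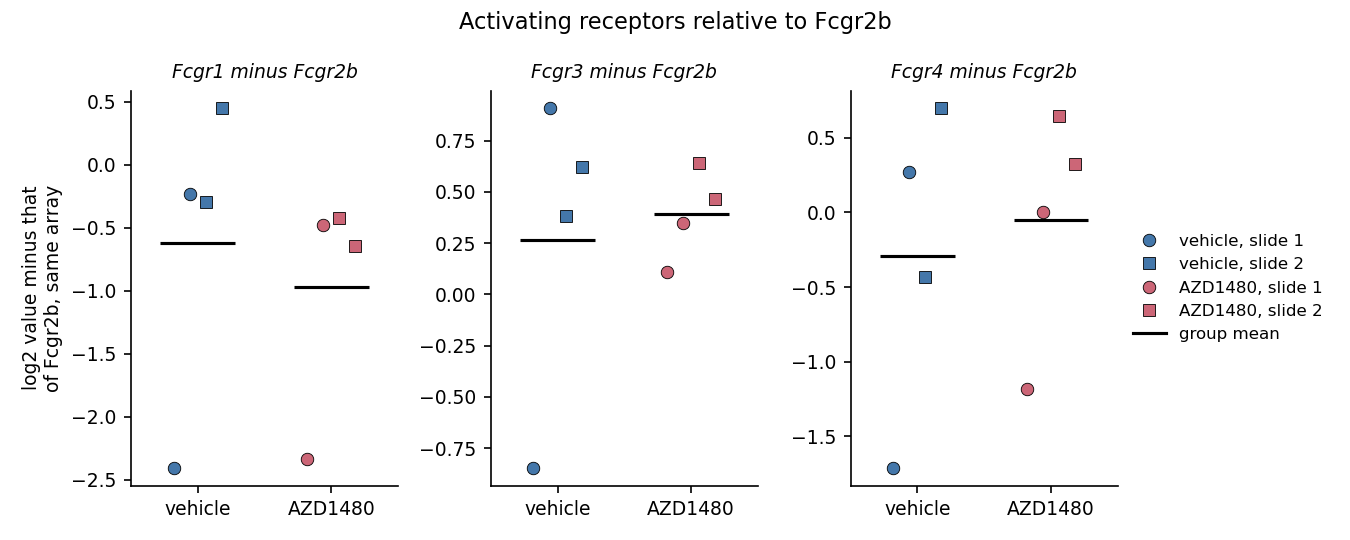
Log2 value of each activating receptor minus that of Fcgr2b on the same array, on the y axis, with 1 point per tumour (circles slide 1, squares slide 2) and bars for the means of 4. The groups overlap in all 3 panels, and vehicle replicate 1, the leftmost blue point, is the lowest vehicle tumour in each.

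The receptors were also set against the chains, which myeloid cells also express, to measure how far each changed beyond them. Fcgr1 minus Fcer1g was -4.78, -5.08, -4.33 and -4.16 in the vehicle tumours and -5.74, -5.38, -5.23 and -5.37 in the AZD1480 tumours. Every AZD1480 tumour was again below every vehicle tumour, and AZD1480 replicate 1 was now close to the other treated tumours. The groups differed by -0.84, by -0.74 without AZD1480 replicate 1, and by -0.63 and -1.05 within slides 1 and 2. Of all genes tested, 0.445% were lower without overlap relative to Fcer1g. Set against Tyrobp, Fcgr1 was lower by a difference of -0.89, and against the mean of 13 macrophage markers by -0.996, each without overlap. Among all genes 0.435% and 0.708% were lower without overlap on those scales.

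With all 8 arrays no other member separated the groups relative to Fcer1g. Fcgr3 minus Fcer1g was -3.22, -3.95, -3.65 and -3.99 in the vehicle tumours and -3.30, -4.55, -4.16 and -4.26 in the AZD1480 tumours, where AZD1480 replicate 1 was at the level of the highest vehicle tumour and the other 3 treated tumours lay below every vehicle tumour. Relative to Tyrobp and to the macrophage mean, too, the Fcgr3 groups overlapped through AZD1480 replicate 1 alone. The share of all genes that separate the groups without that array was not computed, so Fcgr3 is not likened to Fcgr1 here. The difference of Fcgr3 minus Fcer1g was -0.36 with all arrays, -0.62 without that tumour and -0.20 without vehicle replicate 1. Relative to Fcer1g the groups differed by -0.25 for Fcgr4 (-0.22 without AZD1480 replicate 1), by -0.49 for Fcgr2b (-0.84 without it) and by 0.055 for Tyrobp (0.040 without it). Without vehicle replicate 1 the difference of Fcgr2b minus Fcer1g was 0.040, so its sign rested on that tumour. Tyrobp minus Fcer1g stayed between -0.26 and -0.036 on all 8 arrays. Fcgrt minus Fcer1g was higher in the AZD1480 tumours by 0.74 (0.41 without AZD1480 replicate 1), with the groups overlapping.

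**Figure D4:**
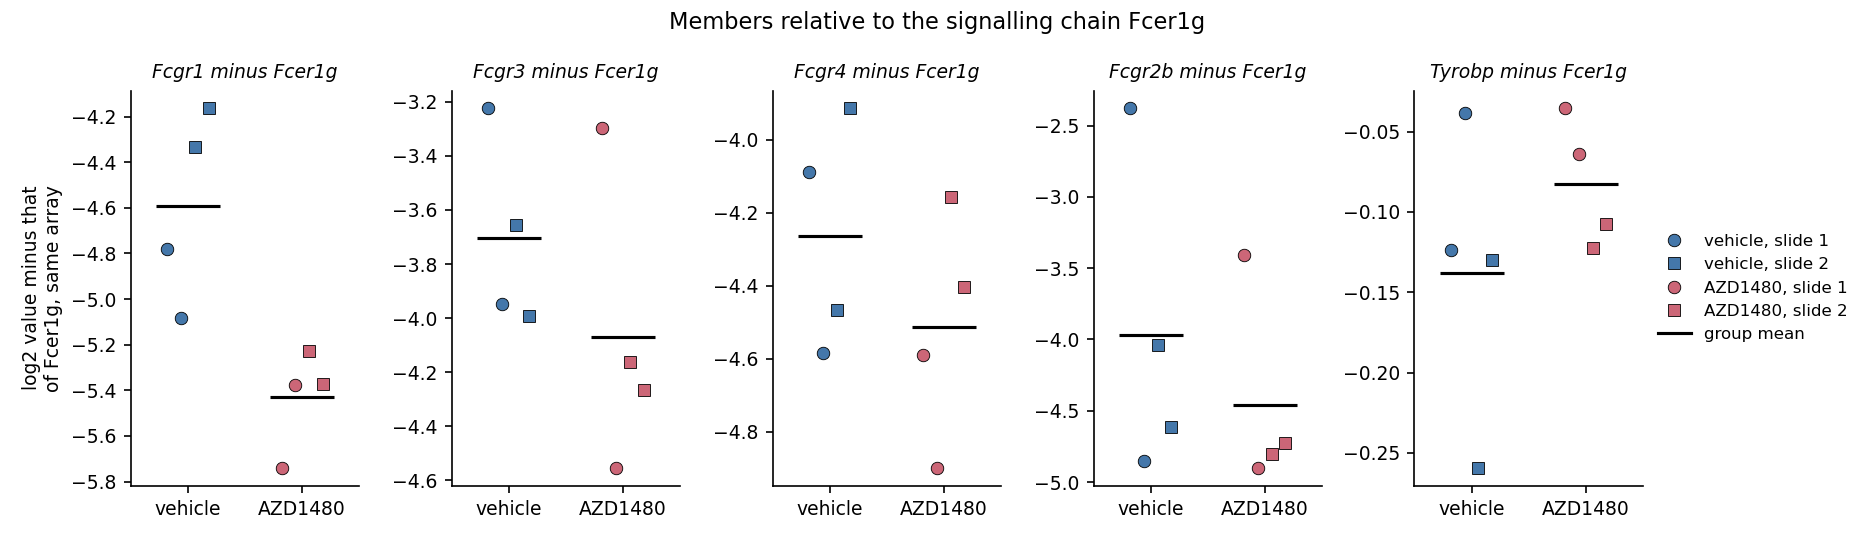
Log2 value of a gene minus that of Fcer1g on the same array, on the y axis, with 1 point per tumour (circles slide 1, squares slide 2), bars for the means of 4 and a range of its own in each panel. Fcgr1 alone of the 5 genes drawn separates the groups, Fcgr3 overlaps through AZD1480 replicate 1, and Tyrobp stays within -0.26 to -0.036.

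Across the 8 arrays the members fell into closely and loosely linked pairs, described here by Pearson's r over arrays that share treatment, slide and array scaling. Fcer1g and Tyrobp followed each other most closely, at 0.993, and at 0.945 without AZD1480 replicate 1. Fcgr1 and Fcgr4 were at 0.922, which came down to 0.753 without that array. Fcgr3 and Fcgr2b, whose highest value was in the same tumour, vehicle replicate 1, were at 0.826 and at 0.846 without AZD1480 replicate 1. Fcgr2b was only loosely linked to the chains (0.323 with Fcer1g and 0.287 with Tyrobp) and ran against Fcgrt (-0.621).

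The genes whose values over the 8 arrays were most like each receptor's differed from member to member. For Fcgr1 they were Isg20 (r = 0.994), an interferon-induced exonuclease, the complement component C4b (0.993) and the adaptor Scimp (0.982). Isg20 ran from 1.21 to 2.18 in the vehicle tumours and from -1.07 to 1.31 in the AZD1480 tumours. C4b and Isg20 were also the first 2 for Fcgr1 after each slide's mean was subtracted. Gbp5, an interferon-induced guanylate-binding protein (0.991), Sla (0.987) and Vsir (0.985) were most like Fcgr4.

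For Fcgr3 the closest were the mannosidase Man1a (0.964), the chemokine receptor-like Ccrl2 (0.954) and the purinergic receptor P2ry13 (0.953). Fcgr2b was most like Bbx (0.974), Eaf1 (0.969) and the lipid kinase subunit Pik3cb (0.952). Fcer1g was most like the leukocyte surface gene Cd52 (0.993), Mapre2 (0.992) and Atp8b1 (0.991). Tyrobp was most like Aif1 (0.999), a macrophage marker, Slamf9 (0.994) and Ang4 (0.990). Fcgrt had the loosest company, Haus1 (0.931), Nudt6 (0.923) and Hic1 (0.909). These are the highest correlations over 8 arrays for each member, out of the 19778 genes tested less the members and the clone or model names. They serve as a description only.

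Of the kinases, adaptors and effectors that act below the receptors, 0 passed limma's adjusted test. In this and the next 2 paragraphs a value in brackets is the one without AZD1480 replicate 1. Of 6 receptor-proximal kinases 5 were lower and 1 higher, with a median difference of -0.31 (-0.09), where 43.5% of all genes tested were lower and their median was 0.045 (0.023). Src was the higher one, at 0.77 ± 0.31 (0.77; limma adjusted p = 0.974), while Fgr was at -0.60 (-0.46), Btk at -0.49 (-0.066) and Lyn at -0.88 (-0.078). Syk, the kinase that docks on phosphorylated ITAMs, is named for that role after its value was seen and was at -0.055 (-0.46). Of 9 adaptors 6 were lower, with a median of -0.47 (-0.061), among them Lcp2, or SLP-76, at -1.17 (-1.10), which was well above background on only 1 of the 4 AZD1480 arrays. Of 13 effectors 10 were lower, with a median of -0.37 (-0.13). The kinase subunit Pik3cg was at -1.08 (-0.67), Arhgdib at -0.43 (-0.25), Card9 at -1.02 (-0.66) and the GTPase Rac2 at -0.55 (-0.23). Genes of the phagocyte oxidase, which makes superoxide upon Fc receptor engagement, were lower in 4 of 5, with a median of -0.36 (-0.048). Its subunit Cybb was at -0.68 (-0.32) and Ncf4 at -0.62 (-0.20).

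Enzymes that carry the signal of Fcgr2b and other ITIM receptors were lower in 5 of 7, with a median of -0.14 (0.017). The lipid phosphatase Inpp5d, which Fcgr2b recruits, was at -0.34 (-0.044). The phosphatase Ptpn6 was at -0.89 (-0.28). Its groups did not overlap, but only barely, with AZD1480 replicate 3 at -0.627 and vehicle replicate 1 at -0.625. Of all genes tested, 1.41% were lower without overlap. Other inhibitory receptors of myeloid cells were lower in 7 of the 9 tested, with a median of -0.18 (-0.015) and of 0.075 within slide 2. Pilra was at -0.86 (-0.63), Cd72 at -0.77 (-0.21) and Pirb at -0.65 (-0.087), and Clec12a and Clec4a2 did not pass the detection filter. Of 10 tested receptors that pair with Fcer1g or Tyrobp 6 were lower, with a median of -0.16 (0.017). Trem1 was at 0.41 (0.37), Sirpb1a at -0.72 (-0.17) and Trem2 at -0.54 (-0.081), and Trem3, Clec5a, Ncr1 and Klrk1 did not pass the filter. Among 7 tested other Fc receptors 4 were lower, with a median of -0.31 (0.081). Trim21, the cytosolic IgG receptor, was at -0.40 ± 0.15 (-0.45; limma adjusted p = 0.974), with no overlap between the groups. Fcer1a, Ms4a2, Fcrlb, Fcrl1 and Fcamr did not pass the filter.

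Regulators of the receptors, meaning the JAK-STAT, interferon regulatory and myeloid factors and their cytokines, were lower in 11 of 13, with a median of -0.34 (-0.17). Stat3 was at -0.90 ± 0.26 (-0.80; limma adjusted p = 0.974), the macrophage growth factor Csf1 at -0.45 (-0.33) and the interferon regulatory factor Irf1 at -0.34 (-0.35). These 3 had a negative sign within both slides as well. No regulator passed the adjusted test.

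**Figure D5:**
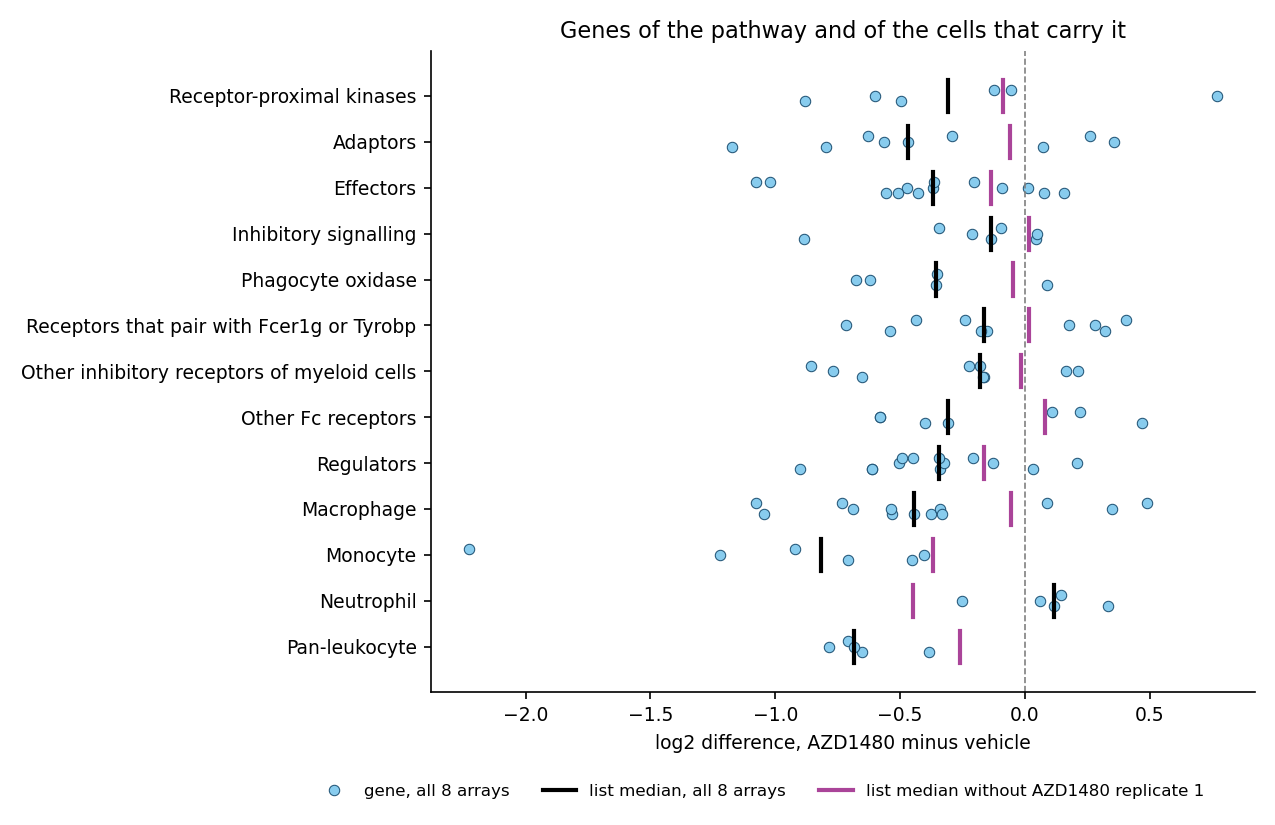
Log2 difference, AZD1480 minus vehicle, on the x axis for the genes of each list (points), with the list median over all 8 arrays (black bars) and without AZD1480 replicate 1 (purple bars). Most medians lie below 0, and without that array they lie nearer to 0 in 12 of the 13 lists drawn, the neutrophil list going from 0.12 to -0.45.

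Over all 8 arrays markers of macrophages, monocytes and leukocytes at large were mostly lower in the AZD1480 tumours. Those of neutrophils, natural killer, B and dendritic cells were not. Without AZD1480 replicate 1 the neutrophil median was negative too (-0.45), under those of macrophages, monocytes and leukocytes at large. No marker passed limma's adjusted test. Of 13 tested macrophage markers 10 were lower (median -0.44, and -0.06 without AZD1480 replicate 1), and Cd163 did not pass the detection filter. Their summed signal, in multiples of the 75th percentile, was 32.8 to 38.0 in the vehicle tumours and 15.1 to 64.6 in the AZD1480 tumours, and the mean of their log2 values was -0.40 lower, or -0.080 without AZD1480 replicate 1. The mannose receptor Mrc1 had the smallest p (-1.04 ± 0.31, limma adjusted p = 0.974), and C1qa was at -0.73, or -0.30 without AZD1480 replicate 1. All 6 tested monocyte markers were lower (median -0.81, and -0.37 without that array), with sums of 41.3 to 93.9 in vehicle and 6.85 to 125.8 in AZD1480. Such sums add linear signals, so the brightest gene leads them. For monocytes it was Fn1 (vehicle mean 5.93, AZD1480 SD 2.02) and for macrophages Itgam (vehicle mean 3.39, AZD1480 SD 1.47). The sums are therefore not a measure of cell content. Plac8 was at -2.23 ± 0.40 with no overlap, where 1.41% of all genes tested were lower without overlap. All 5 pan-leukocyte markers were lower (median -0.69, and -0.26 without that array), with sums of 5.40 to 6.76 in vehicle and 1.48 to 6.20 in AZD1480.

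AZD1480 replicate 1 had the lowest sum in each of these 3 lists, as it had the lowest Fcgr1, Fcgr3, Fcgr4, Fcer1g and Tyrobp. Neutrophil markers were higher in 4 of 5 (median 0.12, and -0.45 without that array), with sums of 24.7 to 52.3 and 20.1 to 105.0. Csf3r, the brightest of them (vehicle mean 5.26), led the neutrophil sums. The neutrophil markers Ly6g, Retnlg and Mpo did not pass the filter, nor did the dendritic cell marker Xcr1. The same held for the natural killer markers Ncr1, Klrb1c and Gzmb and the mast cell markers Ms4a2 and Fcer1a. The 4 tested natural killer markers had a median of 0.06 (0.23 without that array) and sums of 0.414 to 0.642 and 0.421 to 0.653. For the 5 tested B cell markers the median was 0.08 (0.33 without that array) and the sums 0.209 to 0.314 and 0.110 to 0.324. The 6 tested dendritic cell markers had a median of -0.003 (0.086 without it) and sums of 0.498 to 0.744 and 0.365 to 0.646. The part of these cell markers in the receptor differences was not tested beyond the values set against Fcer1g, Tyrobp and the macrophage mean.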

How the data were processed

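One-colour Agilent arrays (Cy3) measured total RNA of 1 tumour from each of 8 mice, per the labels' protocols. The scanner software was Agilent Feature Extraction 9.5.3, per the submitters' processing notes. The deposited processed intensity of a spot is background-subtracted and detrended within its array, per the file headers. A value table that the authors deposited on a log2 scale was an alternative.

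Processed intensities were put on a log2 scale and each array's 75th percentile was subtracted. Spots of a probe were averaged without those flagged as outliers, probes well above background on at least 4 of 8 arrays were kept, and the brightest represented a gene. The comparison used limma 3.58.1 (R 4.3.3) over 19778 genes, with treatment as the only term, two-sided, Benjamini-Hochberg adjusted. Differences between 2 receptors were tested by exact permutation. The named genes of a list are up to 4 in the order of their p, from the smallest. The genes most alike are the 3 with the highest Pearson r, with the members and the clone or model names left out. Some genes of the lists are not reported here. The members and lists were chosen with earlier results of these data known. Replicates are separate mice, and the number of arrays limits the precision. The procedure was tested on simulated data.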

Additional observations from a re-analysis of the deposited data

How the results depend on the processing

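Over 20 alternatives (background correction, scaling, filters, probe choice, the authors' table, slide, replicate block, array weights and each tumour left out) the count of genes passing was 0, with smallest adjusted p of 0.0582 to 0.9998, and all 7 genes kept the sign of their difference. The differences ran from -1.68 to -0.92 for Fcgr1, -1.23 to -0.61 for Fcgr3, -1.30 to -0.31 for Fcgr4, -1.43 to -0.54 for Fcgr2b, -0.89 to -0.18 for Fcer1g, -0.86 to -0.14 for Tyrobp and 0.058 to 0.35 for Fcgrt. With single tumours left out, Fcgr1 minus Fcgr2b ran from -0.94 to 0.10, Fcgr3 minus Fcgr2b from -0.25 to 0.34 and Fcgr4 minus Fcgr2b from -0.23 to 0.62, so the sign of each turned. The turns came without vehicle replicate 1 for Fcgr3 (-0.25) and Fcgr4 (-0.23), and without AZD1480 replicate 1 (0.10) or vehicle replicate 4 (0.0062) for Fcgr1. The unadjusted p of Fcgr1 was above 0.05 within slide 1 and without vehicle replicate 3 or 4, and that of Fcgr3 within slide 2. Of 240 list medians, 42 moved by more than the SD of the list's median over the 4 vehicle tumours. Of these, 12 were within slide 1 and 10 without AZD1480 replicate 1. Array weights were not applied to differences between receptors. The deviations of same-numbered tumours from their group means had r of 0.36, 0.36, 0.13 and -0.06. Vehicle replicates 1, 2 and 3 each deviated most like the AZD1480 tumour of their number. Vehicle replicate 4 deviated most like AZD1480 replicate 3 (0.55). Same-numbered tumours also share a slide, and same-slide tumours of different number had r of -0.29, -0.087, -0.042 and 0.55. These few values do not settle whether the numbers pair the tumours. With the replicate block 0 genes passed, 461 instead of 345 were lower at an unadjusted limma p under 0.05, and Fcgr1 and Fcgr3 again stood under 0.05, with a limma adjusted p = 0.838 for each. The exact p of the receptor differences in pairs were 0.25, 0.75 and 0.625. Each member's probe was well above background on all 8 arrays, yet with normexp background correction Fcgr1 was at -1.06 and Fcgr1 minus Fcgr2b at -0.14. In the authors' table Fcgr1 minus Fcgr2b was at -0.21.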

Other observations

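Markers of cell types that carry single members, or none, varied widely between tumours and none of their genes passed limma's adjusted test. Of 5 tested mast cell and basophil markers, whose cells use Fcer1g in the IgE receptor, 4 were lower, with a median of -1.13. That median was -0.34 without AZD1480 replicate 1 and 0.13 within slide 2. The -1.13 is the value of Mcpt4, which like Cpa3 was well above background on only 1 of the 4 AZD1480 arrays. Endothelial markers, from cells that use Fcgrt, were lower in 5 of 7 (median -0.20, and -0.27 without AZD1480 replicate 1). Vwf was at -1.12 with no overlap between the groups, where 1.41% of all genes tested were lower without overlap. All 8 epithelial tumour markers were lower (median -0.71, and -0.45 without that array), with Wfdc2 at -1.31 (-0.88 without it). Within slide 2 Krt18, Pax8, Krt8 and Krt7 were higher, and without that array Pax8 (0.20) and Krt7 (0.56) were, the others staying lower. Fibroblast markers were lower in 5 of 7 (median -0.45, and -0.01 without that array), and the 4 tested T cell markers had a median of -0.29 (-0.13 without it).

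Sources of the receptors' ligand could be followed only in part. Of 9 listed immunoglobulin and plasma cell genes 3 were tested, and their differences were -1.14 for Jchain, -0.44 for Mzb1 and 0.11 for Sdc1 (-0.89, 0.48 and 0.33 without AZD1480 replicate 1). Ighg1, Ighg2b, Ighg2c, Ighg3, Ighm and Igkc were not among the genes tested.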
